A study of Homo sapiens with 12 samples.

Results

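The nuclear-encoded subunits of respiratory chain complexes I to IV were followed in total RNA and in cap-immunoprecipitated RNA of U2OS cells, a human osteosarcoma line. The subunits were chosen by name alone. All genes of the table named NDUFA, NDUFB, NDUFC, NDUFS or NDUFV plus a number were taken, with SDHA to SDHD and a set of complex III and IV subunits. This gave 60 of the 58684 genes in the table, 36 of complex I, 4 of complex II, 9 of complex III and 11 of complex IV. NDUFA4 is counted with complex IV, to which it has been reassigned. One stable line expressed eIF4E-Flag and the other held the empty vector. eIF4E binds the m7G cap of mRNAs and helps to start their translation. Each group had 3 libraries, namely Cap IP and input of eIF4E cells, and Cap IP and input of vector cells. Cap IP is RNA pulled down by its m7G cap and input is the total RNA before the pull-down. All libraries were depleted of ribosomal RNA. The sources used here do not say whether a line is 1 clone or what drives the transgene. The study's title concerns eIF4E and the m7G capping of RNAs.

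The respiratory chain passes electrons from NADH and succinate to oxygen and pumps protons out of the mitochondrial matrix. Complex I oxidises NADH, complex II oxidises succinate, complex III passes electrons to cytochrome c and complex IV reduces oxygen. Most subunits are translated in the cytosol from capped nuclear mRNAs. A small number of core subunits come from mitochondrial DNA, whose transcripts are made by another polymerase and carry no m7G cap.

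Because the cap sits on the first transcribed base, the sequence around the annotated start is shown for 6 of the subunits, chosen after their values were seen. NDUFA1, NDUFA3 and NDUFB11 were higher in Cap IP than in input in both kinds of cells. COX6A1 was higher in Cap IP in vector cells, and NDUFV1 and SDHA were lower in Cap IP in eIF4E cells. Each stretch runs from 100 bases before the annotated start to 9 bases after the first transcribed base, on the gene's strand, from RefSeq on GRCh38.p14. Capitals mark the first transcribed base and any match to CCGGAAG (the ETS motif bound by GABP), AAGATGG (YY1) or GGGCGG (SP1), on either strand.
NDUFA1, chrX:119871732-119871841, plus strand: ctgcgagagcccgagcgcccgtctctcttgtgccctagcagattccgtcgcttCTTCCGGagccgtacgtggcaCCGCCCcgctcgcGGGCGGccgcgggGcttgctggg
NDUFA3, chr19:54102755-54102864, plus strand: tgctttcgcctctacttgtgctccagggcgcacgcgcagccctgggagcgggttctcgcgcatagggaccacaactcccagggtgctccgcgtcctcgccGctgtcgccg
NDUFB11, chrX:47144693-47144802, minus strand: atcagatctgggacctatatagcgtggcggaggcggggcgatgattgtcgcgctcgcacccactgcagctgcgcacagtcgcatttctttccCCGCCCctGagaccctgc
COX6A1, chr12:120438013-120438122, plus strand: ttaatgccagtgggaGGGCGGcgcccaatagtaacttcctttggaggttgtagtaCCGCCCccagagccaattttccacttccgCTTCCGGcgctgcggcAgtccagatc
NDUFV1, chr11:67606836-67606945, plus strand: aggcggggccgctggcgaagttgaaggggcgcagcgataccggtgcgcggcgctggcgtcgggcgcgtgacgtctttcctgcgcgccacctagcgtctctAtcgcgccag
SDHA, chr5:218220-218329, plus strand: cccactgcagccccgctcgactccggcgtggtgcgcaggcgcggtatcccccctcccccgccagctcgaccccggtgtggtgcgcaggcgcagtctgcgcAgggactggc

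Over the 50 subunits with a RefSeq promoter, 46.0% start with G and 42.0% with A, against 33.2% and 44.3% of 27305 promoters. In the whole window of 300 bases, 250 of them before the start, 30.0% of the subunits hold the ETS motif, against 10.7% of all promoters. The YY1 motif is in 22.0% against 6.06%, and the SP1 motif in 60% against 44.6%. These shares are not particular to the subunits. Mitochondrial ribosomal protein genes hold the ETS, YY1 and SP1 motifs in 41.2%, 33.8% and 60.3%. Cytosolic ribosomal protein genes hold them in 33.3%, 14.3% and 55.6%. The NRF1 motif, also searched, is in only 3 of the 50 subunits (6.0%), against 1.36% of all promoters. Mitochondrial and cytosolic ribosomal protein genes hold it in 1.47% and 1.59%. Motifs were searched on both strands and none of these matches shows that a factor binds. A C start followed by at least 4 pyrimidines, the pattern of terminal oligopyrimidine mRNAs, was annotated for 8.0% of the subunits and 68.3% of cytosolic ribosomal protein genes.

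Libraries held 1206321 to 1813486 counts, of which 1539 to 3502 per library fell on the 60 subunits (0.108% to 0.209%). Values are given as CPM, counts scaled by library size and TMM factor. The subunits were tested in a model over all genes, and 50 of them were among the 12460 genes with enough counts, 28 of complex I, 3 of complex II, 8 of complex III and 11 of complex IV. The other 10 held 0 to 66 counts over all 12 libraries, namely NDUFA5, NDUFA7, NDUFA9, NDUFB1, NDUFB5, NDUFB8, NDUFC2, NDUFV2, SDHD and UQCR11. NDUFA7 had 0 counts in every library, for which counting error alone allows up to 3 counts, or 1.19 to 3.15 CPM, in each. NDUFA7 has 68 bases of exon opposite to RPS28, which averaged 252.2 counts in a library. The part of this overlap in the 0 counts was not tested. EIF4E itself had 29, 26 and 27 counts in Cap IP of eIF4E cells, against 15, 12 and 30 in Cap IP of vector cells. In input it had 39, 27 and 23 counts in eIF4E cells, against 15, 9 and 15 in vector cells. Its log2 change between eIF4E and vector input was 0.98 ± 0.36 (SE), with an adjusted p of 0.231 in edgeR's quasi-likelihood test. The input values did not overlap, but the change did not pass. Of the osteoblast lineage markers, RUNX2 held 177, COL1A1 10693 and SPARC 5646 counts over all libraries, while IBSP held 0 and COL1A2 held 2. Blood markers were near 0, with 2 counts for PTPRC and 0 for HBB, but the epithelial keratins KRT8 and KRT18 held 50732 and 9539 counts. The 4 epithelial markers (KRT8, KRT18, EPCAM and CDH1) summed to 4900 to 6568 CPM in Cap IP of eIF4E cells and 3047 to 4651 CPM in Cap IP of vector cells. In input they summed to 2445 to 3980 CPM in eIF4E cells and 1366 to 2241 CPM in vector cells. The part of these differences in the results on the subunits was not tested.

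Summed over its subunits, complex I stood at 1114 ± 127 CPM in Cap IP and 807 ± 151 CPM in input of eIF4E cells (SD, n = 3 each). In vector cells the complex I sum was 1176 ± 17.2 CPM in Cap IP and 679 ± 90.4 CPM in input. Cap IP and input libraries of this sum did not overlap in either kind of cell. The sum is weighted towards its most abundant subunits, NDUFB11 and NDUFA3, both higher in Cap IP. In eIF4E cells 17 of the 28 tested complex I subunits changed by more than 0 and 11 by less, with a median of 0.26. Of these, 4 were called higher and 2 lower. The sum without the most abundant subunits was not tested. The complex II sum went the other way, at 46.9 ± 10.4 CPM in Cap IP and 84.9 ± 20.7 CPM in input of eIF4E cells, without overlap. This sum is weighted towards SDHA, its most abundant subunit. In eIF4E cells SDHB (-0.27 ± 0.39) and SDHC (-0.47 ± 0.77) did not pass. In vector cells the complex II sums overlapped, at 41.7 ± 12.6 CPM in Cap IP and 50.4 ± 16.6 CPM in input. Complex III gave 259.8 ± 18.6 CPM in Cap IP and 301 ± 70.2 CPM in input of eIF4E cells, and 289 ± 19.0 CPM in Cap IP and 266 ± 70.9 CPM in input of vector cells. Its Cap IP and input libraries overlapped in both. Complex IV gave 264 ± 25.4 CPM in Cap IP and 279 ± 64.9 CPM in input of eIF4E cells, overlapping, and 399 ± 60.3 CPM in Cap IP and 236 ± 46.8 CPM in input of vector cells, not overlapping. With total counts as library sizes the complex IV sums of vector cells overlapped, at 220.2 to 382 CPM in Cap IP and 248 to 353 CPM in input.

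**Figure D1:**
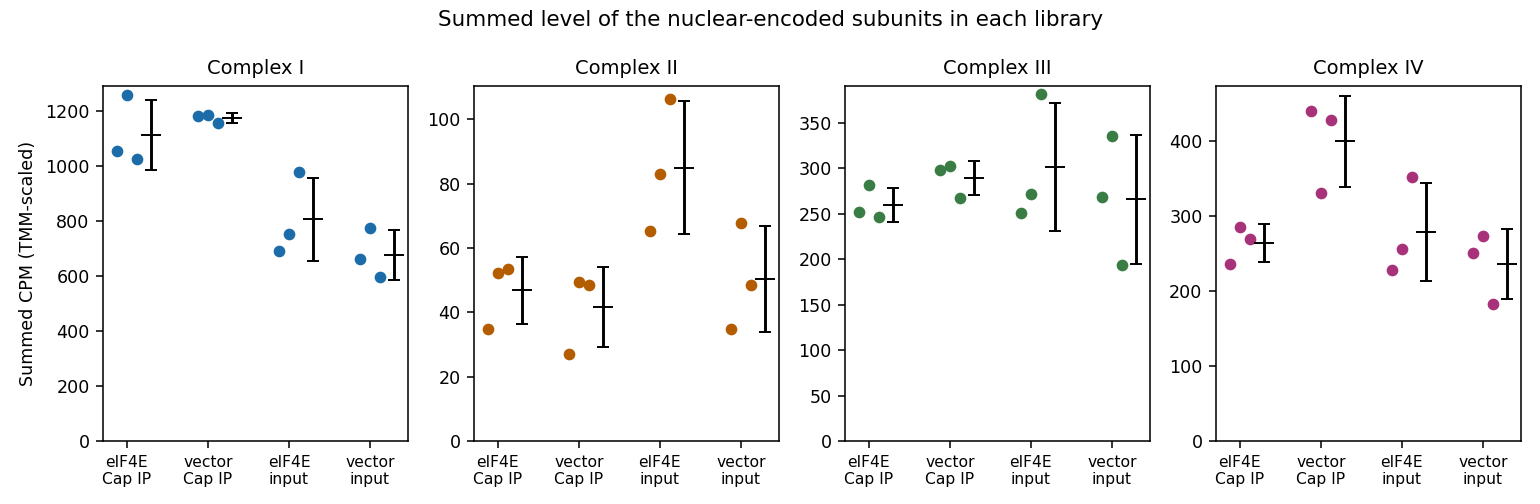
Summed level of the subunits of each complex in each library, in TMM-scaled CPM (linear axis from 0), with the mean and SD of each group of 3 libraries beside its points. Complex I points are higher in Cap IP than in input in both kinds of cells, and complex IV points reach 330 to 439 CPM only in Cap IP of vector cells, apart from 352 CPM in 1 input library of eIF4E cells.

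In vector cells, 14 of the 50 tested subunits were higher in Cap IP than in input and none was lower at an adjusted p under 0.05. Of all genes tested, 18.5% were called higher, 21% lower and 39.5% in either direction in that comparison. The called subunits were the accessory subunits NDUFA1, NDUFA3, NDUFA13, NDUFB4, NDUFB6, NDUFB7, NDUFB10, NDUFB11, NDUFS5 and NDUFS6 of complex I and COX4I1, COX6A1, COX7B and COX7C of complex IV. No subunit of complex II or III passed. In eIF4E cells, 5 subunits were higher (NDUFA1, NDUFA3, NDUFB3, NDUFB11 and UQCRB) and 4 were lower (NDUFA11, NDUFV1, SDHA and UQCRC1). There 21.9% of all genes were called higher, 23.3% lower and 45.1% in either direction. NDUFA1, NDUFA3 and NDUFB11 were called in both kinds of cells. They are 6% of the tested subunits, while 30.9% of all genes were called in both kinds of cells, 15.3% higher in both.

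At an unadjusted p under 0.05 there were 12 subunits in eIF4E cells, against 52.4% of all genes, and 20 in vector cells, against 48.1%. Every Cap IP library lay above every input library for 10 subunits in eIF4E cells (25.4% of all genes) and for 22 in vector cells (22.7%). The opposite held for 7 in eIF4E cells (29.5% of all genes) and 1 in vector cells (27.2%).

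The median log2 change of Cap IP over input was 0.12 over the tested subunits in eIF4E cells, against -0.13 over all genes. In vector cells it was 0.62, against -0.04 over all genes. The change was above 0 for 28 of 50 subunits in eIF4E cells (46.2% of all genes) and for 38 of 50 in vector cells (48.4%). By complex, the medians in eIF4E cells were 0.26 for complex I, -0.47 for complex II, 0.23 for complex III and 0.0005 for complex IV. In vector cells they were 0.64 for complex I, -0.42 for complex II, 0.55 for complex III and 0.79 for complex IV. The median over the subunits in eIF4E cells was near 0 and turned negative with no filter on low counts (-0.024), with at least 50 counts in 3 libraries (-0.0043) and with only the groups compared (-0.029). These values depend on the scaling, since Cap IP and input libraries differed in makeup, with TMM factors of 0.667 to 0.891 in Cap IP and 1.17 to 1.49 in input. With total counts as library sizes, 1 subunit was higher and 17 lower in eIF4E cells, and 2 were higher and 9 lower in vector cells. Of all genes this scaling called 8.84% higher and 47.1% lower in eIF4E cells, and 5.92% higher and 40.2% lower in vector cells. It ended the calls of NDUFA3 (0.60), NDUFB11 (0.25) and UQCRB (1.04) in eIF4E cells and of NDUFB7 (0.51), NDUFB11 (0.62) and COX4I1 (0.10) in vector cells, with adjusted p of 0.0858, 0.42, 0.129, 0.182, 0.0615 and 0.808 in edgeR. The medians of the subunits were then -0.70 in eIF4E cells and -0.11 in vector cells, beside -0.99 and -0.78 over all genes. With the 13 mitochondrial mRNAs as library sizes, 0 subunits were called in eIF4E cells and 18, all higher, in vector cells. That scaling called 6.79% of all genes higher and 5.67% lower in eIF4E cells, and 23.3% higher and 4.43% lower in vector cells. The complex IV median in vector cells was 0.05 with total counts and 1.81 with the mitochondrial mRNAs. The median of the subunits was above that of all genes by 0.25 to 0.29 in eIF4E cells and by 0.66 to 0.78 in vector cells. A change of library sizes shifts all genes nearly alike, so this gap could hardly change and does not test the scaling.

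NDUFA1, a small accessory subunit of the membrane arm of complex I, had 57.5, 68.6 and 60.5 CPM in Cap IP and 15.4, 18.1 and 25.4 CPM in input of eIF4E cells. In vector cells it had 49.6, 62.0 and 57.5 CPM in Cap IP and 18.7, 16.0 and 19.8 CPM in input. Every Cap IP library thus stood above every input library. The log2 changes were 1.67 ± 0.29 (SE) in eIF4E cells and 1.62 ± 0.29 in vector cells, with adjusted p of 0.000133 and 0.000265 (edgeR). NDUFA3, another accessory subunit, had 152, 198 and 149.7 CPM in Cap IP and 47.8, 53.8 and 84.1 CPM in input of eIF4E cells. Its values in vector cells were 123, 158 and 145 CPM in Cap IP and 28.4, 60.9 and 47.2 CPM in input. Again no Cap IP library overlapped with an input library, with log2 changes of 1.43 ± 0.30 in eIF4E cells and 1.63 ± 0.31 in vector cells (adjusted p of 0.000844 and 0.000401, edgeR).

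NDUFB11, an accessory subunit encoded on the X chromosome, had 178, 268 and 239 CPM in Cap IP and 87.8, 95.3 and 143 CPM in input of eIF4E cells. Vector cells gave 219.7, 247 and 218 CPM in Cap IP and 73.7, 109.6 and 80.5 CPM in input. The fractions did not overlap in either kind of cell, and edgeR's log2 changes were 1.07 ± 0.28 in eIF4E cells and 1.37 ± 0.28 in vector cells (adjusted p of 0.00406 and 0.000738). NDUFB7, which lies on the intermembrane-space side of complex I, had 33.9, 48.3 and 36.7 CPM in Cap IP and 21.3, 22.0 and 30.6 CPM in input of eIF4E cells. For vector cells the values were 39.9, 41.0 and 47.9 CPM in Cap IP and 20.7, 17.6 and 16.4 CPM in input. All Cap IP libraries were above all input libraries here too, but the change passed in vector cells only, at 0.69 ± 0.29 in eIF4E cells and 1.24 ± 0.30 in vector cells (adjusted p of 0.0617 and 0.00277, edgeR).

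UQCRB, a small subunit of complex III, had the largest fitted log2 change among the tested subunits in eIF4E cells, from few counts. It had 17, 24 and 11 counts in Cap IP and 21, 1 and 8 counts in input of eIF4E cells, or 17.4, 23.2 and 10.9 CPM and 8.30, 0.489 and 4.15 CPM. In vector cells UQCRB had 27.2, 16.8 and 15.3 CPM in Cap IP and 11.6, 6.95 and 8.43 CPM in input. Cap IP was above input without overlap in both. The log2 changes were 1.93 ± 0.55 in eIF4E cells and 1.13 ± 0.51 in vector cells (adjusted p of 0.00779 and 0.0849, edgeR). NDUFB3, an accessory subunit with a mean of 12 counts per library, was the remaining call, at 1.24 ± 0.47 in eIF4E cells and 0.72 ± 0.49 in vector cells (adjusted p of 0.0367 and 0.253, edgeR).

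The 4 subunits that were lower in Cap IP of eIF4E cells include both flavoproteins of the entry points of the chain. NDUFV1, the core subunit that binds FMN and takes up electrons from NADH, had 14.4, 17.4 and 22.8 CPM in Cap IP and 32.0, 54.7 and 47.8 CPM in input of eIF4E cells. Its vector cells had 29.2, 29.4 and 30.0 CPM in Cap IP and 25.2, 34.2 and 29.9 CPM in input. Cap IP lay below input without overlap in eIF4E cells, while the vector values were intermixed. NDUFV1 has 207 bases of exon opposite to NDUFV1-DT. The log2 changes were -1.29 ± 0.32 in eIF4E cells and -0.01 ± 0.31 in vector cells (adjusted p of 0.00272 and 0.977, edgeR). SDHA, the flavoprotein that oxidises succinate, had 18.5, 22.2 and 38.7 CPM in Cap IP and 42.7, 59.1 and 79.4 CPM in input of eIF4E cells. With the vector SDHA had 12.6, 21.0 and 26.8 CPM in Cap IP and 15.5, 36.3 and 29.9 CPM in input. No Cap IP library reached an input library in eIF4E cells, and the fractions overlapped in vector cells. Its changes were -1.19 ± 0.38 and -0.42 ± 0.39 (adjusted p of 0.0158 in eIF4E and 0.409 in vector cells, edgeR). The call in eIF4E cells was lost without Cap IP replicate 1 (-0.98, adjusted p of 0.0744), Cap IP replicate 2 (-1.08, adjusted p of 0.0654) or input replicate 3 (-0.94, adjusted p of 0.0696) of eIF4E cells.

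UQCRC1, a core protein of complex III, had 36.9, 39.6 and 49.6 CPM in Cap IP and 55.3, 67.9 and 92.9 CPM in input of eIF4E cells. In vector cells it had 44.7, 36.8 and 41.5 CPM in Cap IP and 54.3, 62.0 and 43.4 CPM in input. The fractions did not overlap in eIF4E cells and overlapped in vector cells, with log2 changes of -0.77 ± 0.28 and -0.37 ± 0.29 (adjusted p of 0.032 in eIF4E and 0.312 in vector cells, edgeR). This call too was lost when single libraries were left out. Without input replicate 3 of eIF4E cells the change was -0.55 (adjusted p of 0.133, edgeR). Without Cap IP replicate 1, Cap IP replicate 2 or input replicate 2 of eIF4E cells the change was -0.69, -0.74 or -0.82, with adjusted p of 0.106, 0.0944 and 0.059 in edgeR. NDUFA11, an accessory subunit of the membrane arm, had 1, 3 and 3 counts in Cap IP and 20, 11 and 22 counts in input of eIF4E cells, against 7, 5 and 15 counts in Cap IP and 7, 19 and 17 counts in input of vector cells. In CPM this was 1.03, 2.90 and 2.97 in Cap IP and 7.91, 5.38 and 11.4 in input of eIF4E cells, and 6.81, 5.25 and 9.58 in Cap IP and 4.53, 10.2 and 7.17 in input of vector cells. All Cap IP values were below all input values in eIF4E cells, and the vector values were intermixed. Its log2 changes were -1.79 ± 0.61 in eIF4E cells and 0.01 ± 0.49 in vector cells (adjusted p of 0.0211 and 0.99, edgeR). Without Cap IP replicate 1 or input replicate 3 of eIF4E cells, NDUFA11 gave -1.46 and -1.50 (adjusted p of 0.0919 and 0.0711, edgeR).

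CYC1, the cytochrome c1 of complex III, had 67.7, 84.0 and 84.3 CPM in Cap IP and 104, 112 and 159.9 CPM in input of eIF4E cells, and 91.4, 105 and 72.8 CPM in Cap IP and 109, 148 and 77.2 CPM in input of vector cells. Its fractions were apart in eIF4E cells and overlapped in vector cells, and the log2 changes of -0.67 ± 0.29 and -0.31 ± 0.29 did not pass (adjusted p of 0.0667 in eIF4E and 0.407 in vector cells, edgeR). CYC1 passed in eIF4E cells with at least 50 counts in 3 libraries (-0.70, adjusted p of 0.0271), with only the groups compared (-0.76, adjusted p of 0.0197) and with total counts (-1.49, adjusted p of 0.000246). SDHB, the iron-sulfur subunit of complex II, had 11.3, 25.1 and 8.92 CPM in Cap IP and 16.6, 15.6 and 22.8 CPM in input of eIF4E cells, and 11.7, 16.8 and 14 CPM in Cap IP and 18.7, 23.5 and 14.8 CPM in input of vector cells. SDHB overlapped between fractions in both kinds of cells (-0.27 ± 0.39 in eIF4E and -0.42 ± 0.39 in vector cells). The Rieske iron-sulfur protein UQCRFS1 gave -0.10 ± 0.40 and 0.49 ± 0.41, and neither value passed.

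**Figure D2:**
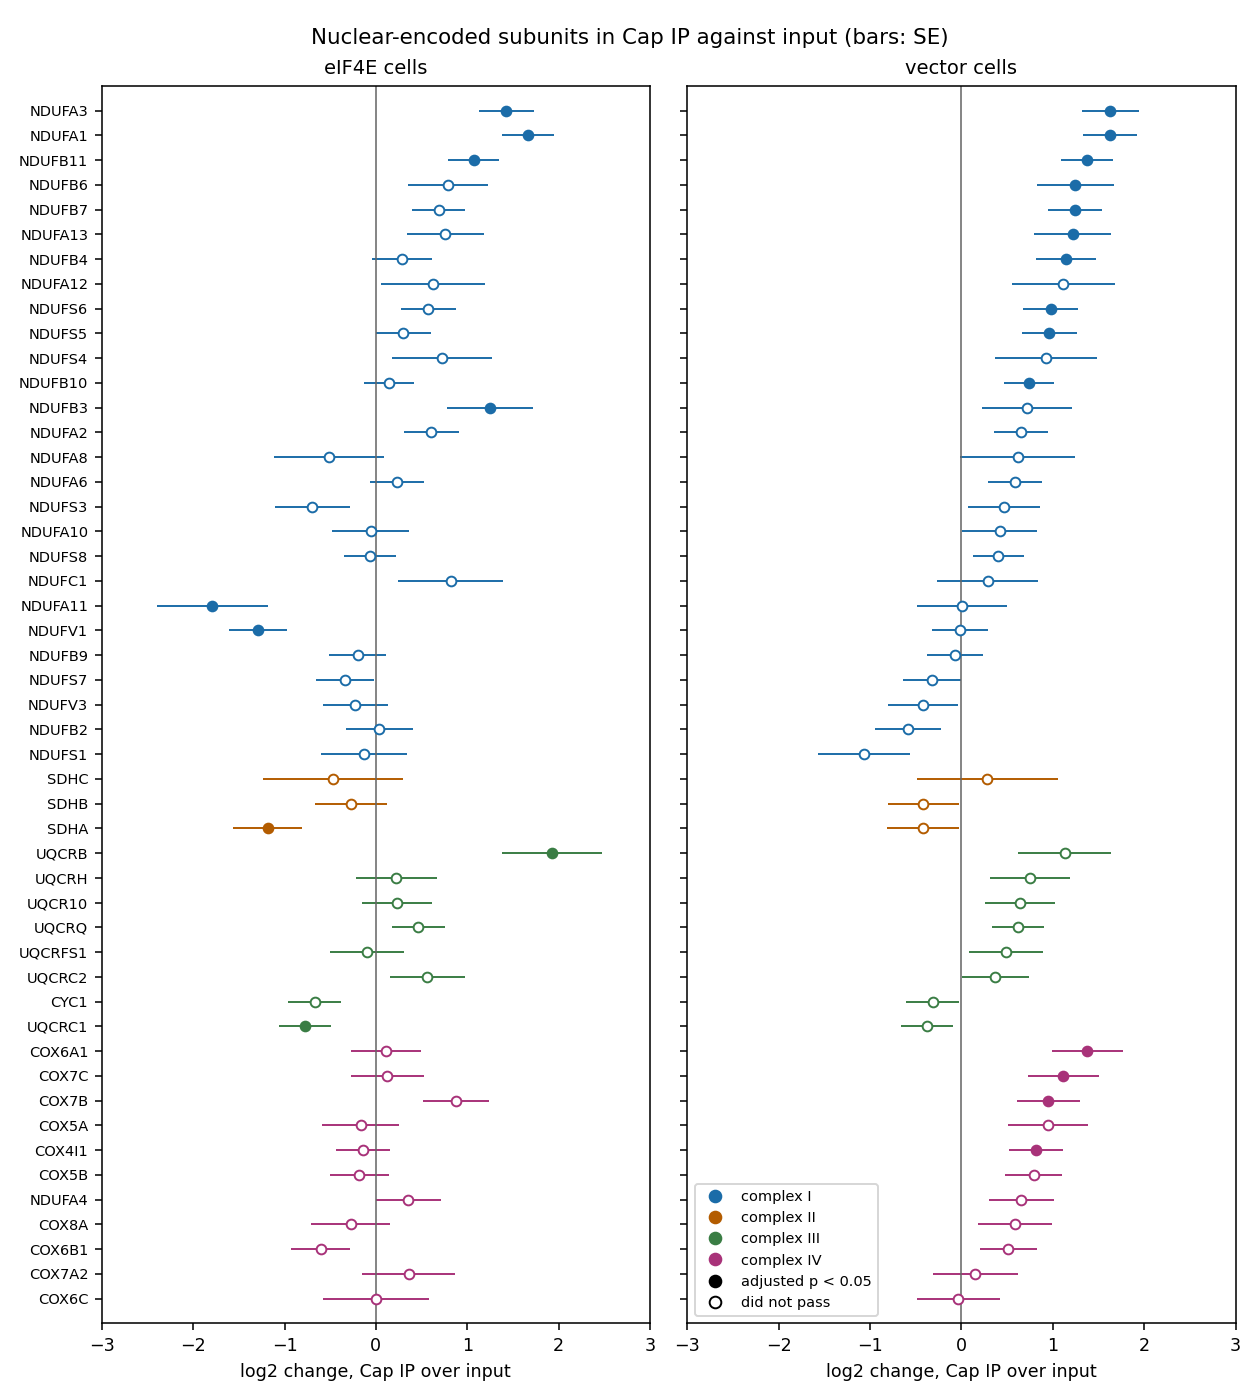
Log2 change of Cap IP over input with its SE for 49 of the 50 tested subunits, in eIF4E cells (left) and vector cells (right), coloured by complex and sorted within each complex by the vector value. Filled points passed an adjusted p of 0.05, namely 5 higher and 4 lower in eIF4E cells and 14 higher in vector cells.

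Between the kinds of cells no subunit passed in either fraction, and the complex with the lowest median change in Cap IP was complex IV. COX4I1, the subunit of complex IV with the most counts, had 67.7, 92.7 and 87.3 CPM in Cap IP of eIF4E cells, against 162, 84.1 and 142 CPM in Cap IP of vector cells. In input it had 77.5, 89 and 107 CPM in eIF4E cells, against 89.9, 78.6 and 53.5 CPM in vector cells. The groups overlapped in both fractions. Its Cap IP over input change was -0.14 ± 0.30 in eIF4E cells and 0.82 ± 0.29 in vector cells (adjusted p of 0.718 and 0.0331, edgeR). The vector call was lost without Cap IP replicate 1 (0.64), Cap IP replicate 3 (0.73), input replicate 2 (0.87) or input replicate 3 (0.62) of vector cells, with adjusted p of 0.142, 0.0862, 0.0598 and 0.149 in edgeR. It was also lost with DESeq2 (adjusted p of 0.0602) and, in edgeR, with only the groups compared (adjusted p of 0.06), no filter on low counts (0.092) and the mitochondrial mRNAs as library sizes (0.0685).

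COX6B1, on the intermembrane-space face of complex IV, had 31.8, 36.7 and 30.7 CPM in Cap IP of eIF4E cells, against 39.9, 56.8 and 61.3 CPM in Cap IP of vector cells. Its input values were 34.0, 55.2 and 62.3 CPM in eIF4E cells, against 27.2, 49.2 and 34.6 CPM in vector cells. The Cap IP groups did not overlap and the input groups did. COX5B, a peripheral subunit on the matrix side, had 32.8, 37.7 and 17.8 CPM in Cap IP of eIF4E cells, against 47.6, 45.2 and 53.0 CPM in Cap IP of vector cells. For input the values were 30.0, 25.4 and 45.2 CPM in eIF4E cells, against 29.1, 29.4 and 26.1 CPM in vector cells. Here too the Cap IP groups were apart and the input groups intermixed. COX6A1, whose start is shown above, had 22.6, 17.4 and 33.7 CPM in Cap IP of eIF4E cells, against 41.8, 27.3 and 40.9 CPM in Cap IP of vector cells. In input COX6A1 had 19.0, 21.0 and 28.6 CPM in eIF4E cells, against 11.6, 23.0 and 8.01 CPM in vector cells. Both pairs of groups overlapped, and its Cap IP over input was 0.11 ± 0.38 in eIF4E cells and 1.38 ± 0.38 in vector cells (adjusted p of 0.838 and 0.00775, edgeR). The log2 difference between eIF4E and vector Cap IP was -0.67 ± 0.32 for COX6B1 and -0.72 ± 0.33 for COX5B, and neither passed (adjusted p of 0.542 and 0.501, edgeR).

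All 11 complex IV subunits had a negative fitted change between eIF4E and vector Cap IP, from -0.78 to -0.22 with a median of -0.65, against -0.01 over all genes. Cytosolic ribosomal protein mRNAs were negative for 68 of 75, with a median of -0.26. Mitochondrial ribosomal protein mRNAs were negative for 34 of 61, with a median of -0.06. None of the 50 subunits passed in that comparison, in which 0.225% of all genes were called (0.0803% higher and 0.144% lower). At an unadjusted p under 0.05 there were 4 subunits, against 9.2% of all genes. DESeq2 called 0 subunits at an adjusted p under 0.05, against 0.463% of all genes. Libraries did not overlap for 8 subunits that were lower in eIF4E Cap IP (7.39% of all genes) and for 1 that was higher (6.16%). The medians were -0.12 for complex I, 0.10 for complex II and -0.15 for complex III. Over all 50 subunits the median was -0.21, and 11 of 50 changes were above 0, against 48.8% over all genes. The smallest p went to NDUFA11, at -1.64 ± 0.64 (adjusted p of 0.433, edgeR).

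Summed over its subunits, complex IV ranged from 236 to 286 CPM in Cap IP of eIF4E cells, against 330 to 439 CPM in Cap IP of vector cells, without overlap. An exact permutation test of 3 against 3 libraries cannot give a two-sided p below 0.1. The separation depended on the scaling. DESeq2's size factors kept the groups apart, at 233 to 284 CPM in eIF4E cells and 328 to 431 CPM in vector cells. Total counts as library sizes gave 164 to 229 CPM in eIF4E cells and 220.2 to 382 CPM in vector cells, which overlap. The 13 mitochondrial mRNAs as library sizes also gave overlapping sums. These scalings of the complex IV sum, and its medians under other settings, were chosen after its values were seen.

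Within a culture, that is the Cap IP and input libraries that share a title stem, the log2 Cap IP over input of the complex IV sum was 0.05, 0.16 and -0.38 in eIF4E cells, against 0.81, 0.27 and 1.22 in vector cells. Every eIF4E culture was below every vector culture. The labels do not say what a stem marks, and in eIF4E cells same-stem libraries did not deviate together beyond the limit set for pairing, so the ratios of eIF4E cultures rest on the titles alone. For the complex I sum the ratios were 0.61, 0.74 and 0.07 in eIF4E cells, against 0.84, 0.62 and 0.95 in vector cells, which overlap. Over single subunits, the log2 ratio was above 0 in all cultures for 12 of 50 in eIF4E cells (31.7% of all genes) and 29 of 50 in vector cells (32.6%). It was below 0 in all cultures for 8 in eIF4E cells (37.8% of all genes) and 7 in vector cells (37.1%). Single subunits were counted as apart where all eIF4E cultures lay below all vector cultures. This held for 11 of the 50 subunits, against 8.32% of all genes. They were the 7 complex IV subunits COX4I1, COX5A, COX5B, COX6A1, COX6B1, COX7C and COX8A, with NDUFB10, NDUFS3, NDUFV1 and SDHA. Some of these gaps were narrow. The highest eIF4E and lowest vector values were 0.236 and 0.238 for COX6A1, and 0.513 and 0.515 for NDUFB10. For COX5A they were 0.133 and 0.152, for COX4I1 0.059 and 0.096, and for COX5B 0.545 and 0.599. The gap was wider for NDUFV1, at -1.03 and -0.21. All eIF4E cultures lay above all vector cultures for NDUFB3 alone among the subunits and for 8.28% of all genes. COX6B1 was the 1 subunit whose ratio was below 0 in all eIF4E cultures (-0.99 to -0.09) and above 0 in all vector cultures (0.20 to 0.80), a pattern found for 0.923% of all genes.

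**Figure D3:**
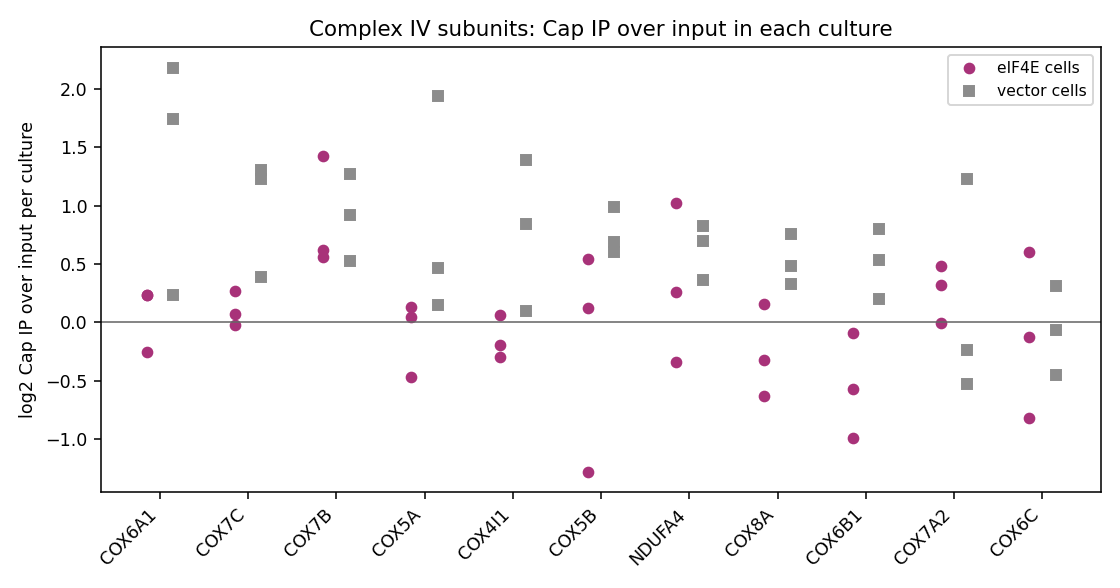
Log2 Cap IP over input of each complex IV subunit in each of the 3 eIF4E cultures (circles, left of each pair) and 3 vector cultures (squares), from log2 CPM with a prior count of 2. For 7 of the 11 subunits all circles lie below all squares, narrowly so for COX4I1, COX5A, COX5B and COX6A1. For COX6B1 the circles are below 0 and the squares above it.

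The direct test of this difference is the interaction of cell kind and fraction. In the main edgeR fit it called no subunit and no gene at an adjusted p under 0.05 (0% of all genes). DESeq2 called 0 subunits and 0% of all genes. With the title stem as a replicate block, edgeR called 0 subunits and 51 of all genes (0.409%), all higher. At an unadjusted p under 0.05 the main fit gave 6 subunits, against 5.84% of all genes. The smallest p went to NDUFV1, with a log2 difference of -1.28 ± 0.44 (adjusted p of 0.833, edgeR), and to COX6B1 with -1.12 ± 0.45 (adjusted p of 0.833, edgeR). COX6A1, a regulatory subunit, gave -1.27 ± 0.54, NDUFA11 -1.80 ± 0.79, COX4I1 -0.96 ± 0.42 and COX5B -0.97 ± 0.45. The median difference was -0.44 over the subunits, against 0.02 over all genes. It was above 0 for 11 of 50 subunits and 51.3% of all genes. It was -0.96 for complex IV (9 of 11 negative), -0.43 for complex I (22 of 28), -0.75 for complex II (2 of 3) and -0.38 for complex III (6 of 8). Without input replicate 3 of eIF4E cells, the library with the highest sum of the subunits among the inputs, the median over the subunits was -0.19 and that of complex IV -0.65. Without input replicate 3 of vector cells, which had the lowest sum, the median over the subunits was -0.26.

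In input, none of the 50 subunits passed between eIF4E and vector cells, where 0.53% of all genes were called (0.104% higher and 0.425% lower). DESeq2 called 0 subunits, against 1.4% of all genes. At an unadjusted p under 0.05 there were 2 subunits, against 13.5% of all genes. SDHA was at 42.7, 59.1 and 79.4 CPM in eIF4E input and 15.5, 36.3 and 29.9 CPM in vector input, without overlap, with a log2 change of 1.13 ± 0.36 (adjusted p of 0.169, edgeR). With no filter on low counts SDHA passed in input (1.23, adjusted p of 0.0442, edgeR). SDHA has near-identical pseudogene copies, which held 72 counts against its 700. UQCRC2, the other core protein of complex III, had 7.12, 6.35 and 5.19 CPM in eIF4E input and 10.3, 12.8 and 11.4 CPM in vector input, also without overlap. Its log2 change was -0.88 ± 0.37 (adjusted p of 0.309, edgeR). In Cap IP UQCRC2 had 9.24, 6.76 and 11.9 CPM in eIF4E cells and 17.5, 12.6 and 14.7 CPM in vector cells. The median change in input was 0.23 over the subunits, with 38 of 50 above 0, against -0.05 and 46.6% over all genes. Libraries did not overlap for 4 subunits higher in eIF4E input (8.45% of all genes) and 2 lower (10.2%). It fell to 0.01 without input replicate 3 of eIF4E cells and to 0.12 without input replicate 3 of vector cells, and was 0.36 without input replicate 2 of vector cells. In bulk RNA, fewer transcripts per cell and fewer cells with a transcript cannot be told apart.

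**Figure D4:**
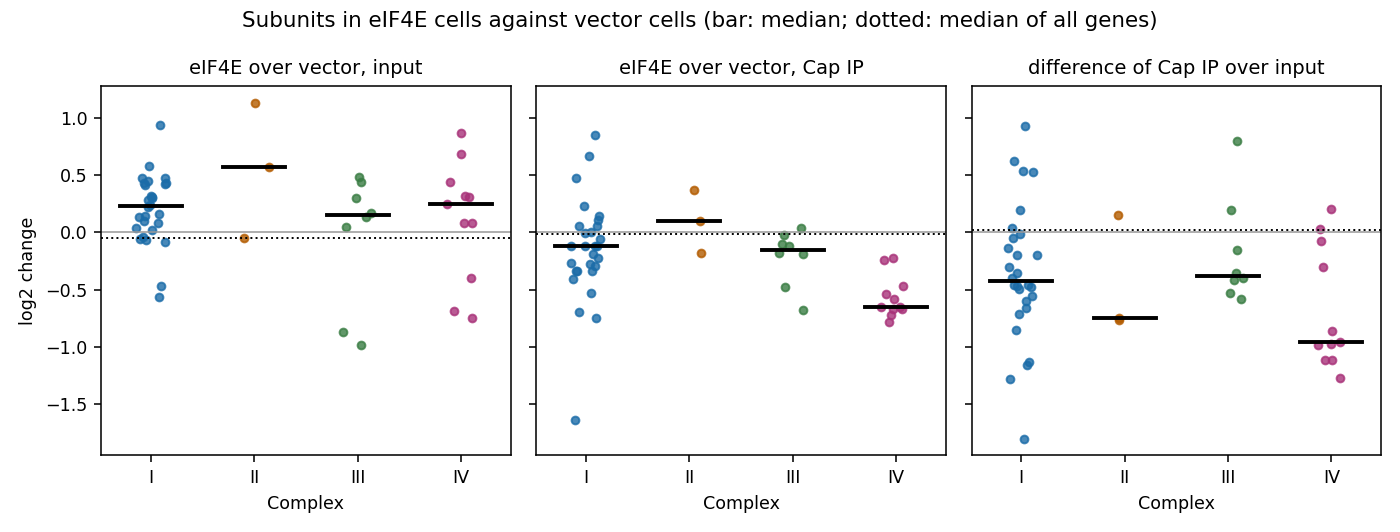
Log2 changes of each tested subunit by complex in eIF4E against vector input (left), eIF4E against vector Cap IP (middle) and the difference of Cap IP over input between the cells (right). Bars are the medians of each complex and the dotted line is the median of all genes, and all 11 complex IV points lie below 0 in Cap IP.

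Subunit mRNAs are short, with a median annotated transcript of 751 bases, against 3380 bases for 8815 protein-coding genes tested. Below 1000 bases, the median log2 change of 31 subunits was 0.22 in eIF4E cells and 0.74 in vector cells, and that of 468 protein-coding genes was 0.25 and 0.66. From 1000 to 2000 bases, 11 subunits had medians of -0.27 and 0.28, against -0.02 and 0.32 for 1604 genes. In the longer bins the few subunits stood above other genes. From 2000 to 4000 bases, 4 subunits had medians of 0.13 and 0.57, against -0.39 and -0.13 for 3151 genes. At 4000 bases or more, 4 subunits had -0.10 and -0.0014, against -0.74 and -0.73 for 3592 genes. Spearman's rho between length and log2 change was -0.25 in eIF4E cells and -0.36 in vector cells across the 50 subunits, and -0.28 and -0.40 across all protein-coding genes. With the coding length, the rho across the subunits was -0.54 and -0.49. These correlations run across genes of the same libraries, and genes are not independent replicates.

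**Figure D5:**
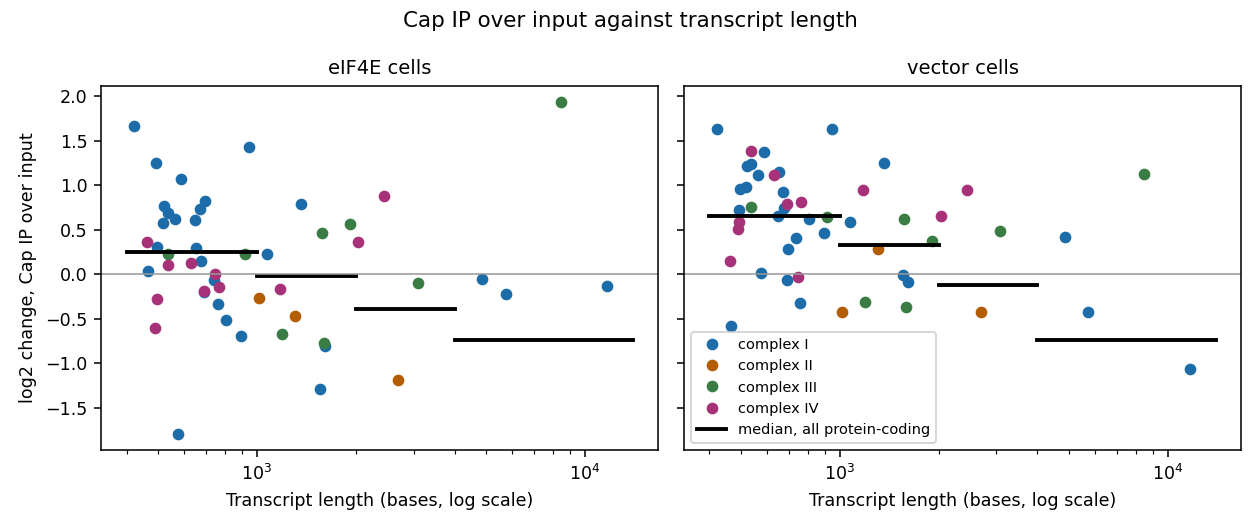
Log2 Cap IP over input of each tested subunit against annotated transcript length (log axis, bases) in eIF4E cells (left) and vector cells (right), coloured by complex. Black bars give the median of all protein-coding genes tested in 4 length bins, which fall with length, and most subunits sit in the bin below 1000 bases.

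For part of the subunits the RNA behind the counts is uncertain. Exons of 21 of the 60 subunits, 18 of them tested, lie opposite to exons of another gene, and the sources used here do not state whether the counting used strand. In 9 of 15 cases where the opposite gene is in the table, that gene held more counts than the subunit. NDUFB2, an accessory subunit of complex I, averaged 30.0 counts in a library and NDUFB2-AS1 233.7. The Cap IP over input of NDUFB2-AS1 was 2.23 ± 0.27 in eIF4E and 2.54 ± 0.28 in vector cells. NDUFB2 itself gave 0.04 ± 0.37 and -0.58 ± 0.36. UQCRQ, a small subunit of complex III, had 65.8 counts against 325 for GDF9, an oocyte growth factor whose change was 2.11 ± 0.27 and 2.65 ± 0.28. UQCRQ gave 0.46 ± 0.29 and 0.62 ± 0.29, and did not pass. Of the subunits called in both kinds of cells, NDUFB11 (224.8 counts) overlaps RBM10 (166.5) and NDUFA3 (139.2) overlaps TFPT (41.6), while NDUFA1 has no opposite exons. The other calls with opposite exons in eIF4E cells were NDUFB3, UQCRB, NDUFA11 and NDUFV1. The partners of NDUFB11 and NDUFA3 did not pass, with -0.44 ± 0.27 in eIF4E and 0.09 ± 0.27 in vector cells for RBM10, and 0.31 ± 0.33 and 0.84 ± 0.34 for TFPT.

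NDUFB6 (20.8 counts), called in vector cells, lies opposite TOPORS-AS1 (100.1), which rose by 1.41 ± 0.27 in eIF4E and 0.99 ± 0.27 in vector cells. Among the 32 tested subunits with no opposite exons, 1 was higher and 2 were lower in eIF4E cells and 10 were higher in vector cells. Their medians were 0.12 in eIF4E cells and 0.64 in vector cells. Pseudogenes are a further source of doubt, since 21 of the 50 tested subunits have at least 1 in the table. For 19 of these the pseudogenes held no more than 10 percent of the subunit's counts, the exceptions being SDHA (10.3%) and COX6C (33.6%). Among untested subunits NDUFB8 held 21 counts and its pseudogene NDUFB8P2 162.

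The 13 mitochondrially encoded mRNAs include the remaining subunits of complexes I, III and IV. In Cap IP against input, 4 were lower in eIF4E cells and 6 in vector cells, and none was higher. MT-CO1, the catalytic subunit of complex IV, changed by -3.02 ± 0.34 in eIF4E cells and -3.23 ± 0.34 in vector cells (adjusted p of 2.42e-06 and 1.77e-06, edgeR). MT-CO2 changed by -2.77 ± 0.43 and -3.47 ± 0.44 and MT-CO3 by -2.15 ± 0.46 and -2.70 ± 0.47. The nuclear-encoded complex IV subunits had medians of 0.0005 in eIF4E and 0.79 in vector cells beside these 3 mitochondrial partners, which were lower in both. The median of the 13 was -0.46 in eIF4E cells and -1.17 in vector cells, but their sum varied between cultures, with log2 ratios of 0.80, -0.94 and -0.18 in eIF4E and -0.63, -2.11 and 0.15 in vector cells.

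ATP synthase uses the proton gradient to make ATP. Of 16 tested subunits, 4 were higher and 1 was lower in Cap IP in eIF4E cells, and 8 were higher and 1 was lower in vector cells. Their medians were 0.46 in eIF4E and 0.82 in vector cells. ATP5J rose by 1.72 ± 0.33 and 1.66 ± 0.32, and the catalytic subunit ATP5B fell, at -1.55 ± 0.33 and -1.18 ± 0.33. Of 9 complex I assembly factors tested, NDUFAF3 was higher in both (1.24 ± 0.29 and 1.57 ± 0.29) and no other passed. Of 7 complex II and III assembly factors, SDHAF3, TTC19 and UQCC3 were higher in both kinds of cells and none was lower. Complex IV assembly factors were mixed, 1 higher and 3 lower of 17 in eIF4E cells and 3 higher and 1 lower in vector cells, with COX15, which makes heme A, at -1.72 ± 0.52 and -2.42 ± 0.49. COX7A1, the muscle isoform of a complex IV subunit, was at -1.93 ± 0.50 and -2.69 ± 0.53. Of 12 tested regulators of respiratory chain genes, 4 were higher and 4 lower in eIF4E cells, and 3 were higher and 4 lower in vector cells. Their medians were 0.03 in eIF4E and -0.63 in vector cells. Those with the smallest p were higher in both. They were the nuclear receptor ESRRA (2.93 ± 0.40 and 2.67 ± 0.39) and the ETS factor subunits GABPA (2.11 ± 0.32 and 2.11 ± 0.32) and GABPB1 (1.95 ± 0.32 and 1.64 ± 0.32). No gene of these lists passed between eIF4E and vector cells in either fraction.

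Mitochondrial ribosomal protein mRNAs, also nuclear-encoded, gave medians of 0.04 in eIF4E and 0.56 in vector cells over 61 genes. Cytosolic ribosomal protein mRNAs gave 0.25 and 0.64 over 75 genes. The median difference between the cells was -0.32 for the first list and -0.46 for the second, beside -0.44 for the subunits and -0.15 for ATP synthase.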

How the data were processed

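RNA of U2OS cells was sequenced in 12 libraries, 3 in each of 4 groups. The authors deposited raw counts of reads per gene, not normalized. Per the submitters' processing notes the authors used STAR 2.5.1b, featureCounts 1.4.5-p1, DESeq2 and GRCh38.p5, and per the labels the libraries came from a KAPA HyperPrep kit with ribosomal depletion. The sources used here state neither the gene annotation nor the strand setting.

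The whole table was fitted by edgeR 4.0.16 (R 4.3.3, limma 3.58.1) after filterByExpr and TMM, with 1 coefficient per group. A call needed an adjusted p (Benjamini-Hochberg, over all genes tested) under 0.05, in each of 5 comparisons. Log2 changes are the fitted values, and log2 CPM used a prior count of 2. DESeq2 1.42.0, other scalings and filters, blocks and left-out libraries were alternatives. The fit was tested on simulated data. Positions and opposite exons came from GENCODE release 44 and promoters from RefSeq.

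The members and lists were chosen with earlier results of these data known. Values in every library are given for EIF4E, for the 2 members of each complex with the highest mean CPM, and per comparison for up to 4 called members in each direction with the smallest p, or the 2 with the smallest p where none passed. Of other lists up to 3 genes with the smallest p could be named. Others named, such as COX6A1 in the difference, NDUFB3, UQCRFS1, UQCRQ, NDUFB6 and ATP5B, were chosen after their values were seen, or for an opposite gene.

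Replicates of a group may not be separate cultures, so the p-values cover no more than the spread of these libraries, which may be technical. None was a copy of another (chi-square per degree of freedom 5.1 to 18). Input and Cap IP titles share a stem, called a culture here, and eIF4E and vector titles share a tag. Residuals from the group means of same-stem libraries correlated at 0.43, 0.27 and 0.44 in vector cells, and those of same-tag Cap IP libraries at 0.20, 0.16 and 0.30, so these were taken as paired. In eIF4E cells (0.35, 0.08 and 0.11) and between inputs (0.18, 0.01 and -0.04) they were not. The main fit held no block in any comparison, so its tests did not use this pairing. Blocks were run as alternatives only. Floors cover counting error only. The values of 1 subunit are not reported here by name.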

Additional observations from a re-analysis of the deposited data

How the results depend on the processing

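The counts on the 60 subunits are few, so small changes of single subunits are not detectable. In Cap IP against input, total counts as library sizes gave 18 calls in eIF4E and 11 in vector cells, with medians of -0.70 and -0.11. Of all genes this scaling called 55.9% and 46.2%. Mitochondrial mRNAs as library sizes gave 0 calls in eIF4E cells and medians of 0.32 in eIF4E and 1.75 in vector cells, -1.35 for the difference, -0.86 in Cap IP and 0.48 in input. In eIF4E cells the median was -0.024 with no filter on low counts, -0.0043 with at least 50 counts in 3 libraries and -0.029 with only the groups compared. Subunits without opposite exons, fewer by construction, gave 3 calls there. In vector cells the calls were 8 with no filter, 9 with 50 counts and 8 with DESeq2. There were 6 without input replicate 3, namely NDUFA1, NDUFA3, NDUFB4, NDUFB7, NDUFB11 and COX6A1. Of all genes, these 4 settings called 16.5% of 33699, 53.7% of 5491, 23% of 20511 and 31.2% of 12991 tested. Leaving out 1 library gave 5 to 9 calls in eIF4E cells, the 5 without Cap IP replicate 1, and 6 to 15 in vector cells. Of all genes, 34% to 44.8% were then called in eIF4E cells and 30.1% to 40.6% in vector cells. Medians then ranged from 0.03 to 0.30 in eIF4E cells, 0.44 to 0.78 in vector cells, -0.54 to -0.19 for the difference, -0.26 to -0.15 in Cap IP and 0.01 to 0.36 in input. No subunit was called between the kinds of cells or for the difference under the alternatives run, except SDHA in input. SDHA was called with no filter and with the tag block (1 call each, against 0.944% and 3.71% of all genes).

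Among single genes, mitochondrial scaling changed the sign of Cap IP over input for COX4I1 (0.15) and SDHB (0.12) in eIF4E cells and for CYC1 (1.02), SDHA (0.62), SDHB (0.75) and UQCRC1 (0.72) in vector cells. It did so between eIF4E and vector Cap IP for NDUFA3 (-0.50), SDHA (-0.26), SDHB (-0.41) and UQCRC1 (-0.57), and for SDHB in the difference (-0.62) and in input (0.22). SDHB in input was also above 0 with total counts (0.0021) and no filter (0.045), as was NDUFB11 in Cap IP with DESeq2's size factors (0.010) and test (0.016). COX6B1 in vector cells was at -0.23 with total counts. Without single libraries, values near 0 crossed it. In input the ranges were -0.039 to 0.44 for CYC1 and -0.22 to 0.15 for SDHB. In Cap IP they were -0.11 to 0.18 for NDUFB11, -0.0025 to 0.69 for SDHA, -0.47 to 0.38 for SDHB and -0.093 to 0.15 for UQCRC1. In the difference they were -0.47 to 0.0036 for EIF4E, -0.47 to 0.077 for NDUFA3 and -0.45 to 0.39 for SDHB. The cause of these changes was not tested.

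With the culture stem as a replicate block, 12 subunits were called in eIF4E cells (7 higher and 5 lower) and 19 in vector cells, all higher. Of all genes this block called 53.7% in eIF4E cells (26.1% higher and 27.6% lower) and 48.8% (23.3% higher) in vector cells. For the difference it called 0 subunits and 51 of all genes (0.409%), all higher. CYC1 was among those called in eIF4E cells (-0.65, adjusted p of 0.0196, edgeR). With the title tag as a block, 0 subunits were called in Cap IP (1.24% of all genes) and 1 in input (3.71% of all genes). That 1 was SDHA (1.16, adjusted p of 0.0163, edgeR). Where the stems or tags were taken as paired, the block ended no call of the subunits.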
